A study of Mus musculus with 16 samples.

Results

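The sodium pump and the sodium-calcium exchanger are described here through 6 genes of the total RNA table, taken by their listed symbols and found through their Ensembl IDs among its 39043 entries. They are Slc8a1, which encodes the exchanger NCX1, Atp1b1, Atp1b2 and Atp1b3, which encode the beta subunits of the pump, and Fxyd1 and Fxyd5, which encode small membrane proteins that bind it. All 6 passed the filter on low counts, which left 20254 genes to test. The libraries come from hearts of wild-type C57BL/6 mice (C57BL/6J in the methods). They fall into 3 cardiac stem cell (CSC) samples, 3 samples of cardiomyocytes made in vitro (iCMs) and 2 samples of adult cardiomyocytes (aCMs). The study describes iCMs as derived from the CSCs. CSCs were sorted as CD45-negative, CD31-negative and c-kit-positive heart cells and grown in serum, and the study describes its cultures as replicates of a single clone. By the study's account iCMs are the bulk culture after 14 days, formed from CSC cardiospheres and not purified for muscle cells. The cardiospheres were kept in StemPro medium with Activin A, BMP-4, Wnt11, Wnt5A and beta-FGF, and later with DKK1. aCMs were isolated freshly from enzyme-perfused adult hearts, several of which were used. Because nothing places each CSC or iCM sample in a clone or animal of its own, the p-values measure only the spread among these samples.

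The sodium pump moves sodium out of the cell and potassium in, at the cost of ATP, and so sets the sodium gradient on which other transporters run. Its beta subunit is needed for folding and for transport to the cell surface, and FXYD proteins adjust its kinetics. In the heart NCX1 uses the sodium gradient to expel the calcium that entered during a beat. Phospholemman, the product of Fxyd1, restrains the cardiac pump until it is phosphorylated after adrenergic stimulation.

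Libraries held 11.1 to 63.2 M counts, with the largest library in CSCs and the smallest in aCMs. The iCM libraries, at 13.4 to 31.2 M, overlapped both of these groups. Several checks of the labels bear on every result below. Kit, the gene of the sorting antigen, had 0 to 5 counts in each CSC library, or at most 0.0836 CPM (counts per M counts of the TMM-scaled library), against 39.6 to 45.0 CPM in iCMs. Ly6a, the other gene of the cardiac stem cell list, was not low in CSCs. It was at 196.8 to 511 CPM there, 243.9 to 374 in iCMs and 125.7 and 151.6 in aCMs. The Y-linked gene Eif2s3y was at 0.106 to 0.175 CPM in CSCs and at 29.7 to 33.7 in iCMs. Ddx3y, Uty and Kdm5d, also Y-linked, had 0 to 6 counts in each CSC library and 28 to 807 in each iCM library. Whether these CSC samples gave rise to these iCM samples was not tested. What separates CSCs from iCMs therefore cannot be told apart from where the cells came from. For Eif2s3y the aCM libraries were at 0.263 and 84.8 CPM. The 8 cardiomyocyte markers summed to 52.4 to 119.8 CPM in CSCs, 14510 to 21980 in iCMs and 162200 to 195600 in aCMs, none of them at 0 in a group. iCMs also held markers of other cells. The 6 endothelial markers summed to 1187 to 1419 CPM in iCMs and 979 to 1250 in aCMs, against at most 3.23 in CSCs. The 4 erythroid markers summed to 4436 to 18270 CPM in iCMs, at most 30.9 in aCMs and at most 2.43 in CSCs. The 4 smooth muscle markers summed to 363.7 to 758.5 CPM in iCMs, 397.7 and 311.4 in aCMs and at most 51.1 in CSCs. Each was called higher in iCMs than in CSCs, but in iCMs vs. aCMs they did not share 1 direction. There Tagln was called higher, Myh11 was called lower, and Acta2 and Cnn1 were not called. The 6 leukocyte markers summed to 101.2 to 183.5 CPM in iCMs, 76.6 and 159.5 in aCMs and at most 10.3 in CSCs. The 5 mesothelial markers summed to 296 to 548 CPM in iCMs, 174 to 211 in CSCs and at most 17.4 in aCMs. Nearly all of the CSC sum was Msln, at a mean of 133 CPM in iCMs and 189 in CSCs and not called between them. Upk3b, Krt18, Krt19 and Wt1 had means of at most 1.17 CPM in CSCs, and each was called higher in iCMs. In these bulk samples fewer cells of a type and less RNA per cell cannot be told apart.

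A gene was called when its adjusted p was below 0.05 and its fold change at least 2.5, in a quasi-likelihood fit of edgeR to all 8 libraries with adjustment over all tested genes. In iCMs vs. CSCs 3 of the 6 genes were called higher, Slc8a1, Fxyd1 and Atp1b2, and 0 lower, where 22.0% of all tested genes were called higher and 7.16% lower. In aCMs vs. CSCs 4 were higher, the same 3 with Atp1b1, and 0 lower, against 24.2% and 20.4% of all genes. In iCMs vs. aCMs Fxyd5 was higher and Fxyd1 and Slc8a1 were lower, against 19.6% and 15.3% of all genes. These shares are for the rule with both thresholds. With adjusted p alone, Atp1b3 was also higher in iCMs than in CSCs and Fxyd5 was also lower in aCMs than in CSCs. The median log2 fold change of the 6 genes was 2.51 in iCMs vs. CSCs, -0.71 in iCMs vs. aCMs and 3.08 in aCMs vs. CSCs, beside -0.02, 0.19 and -0.10 over all genes tested. These comparisons share their groups, and each is given with its own values.

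**Figure D1:**
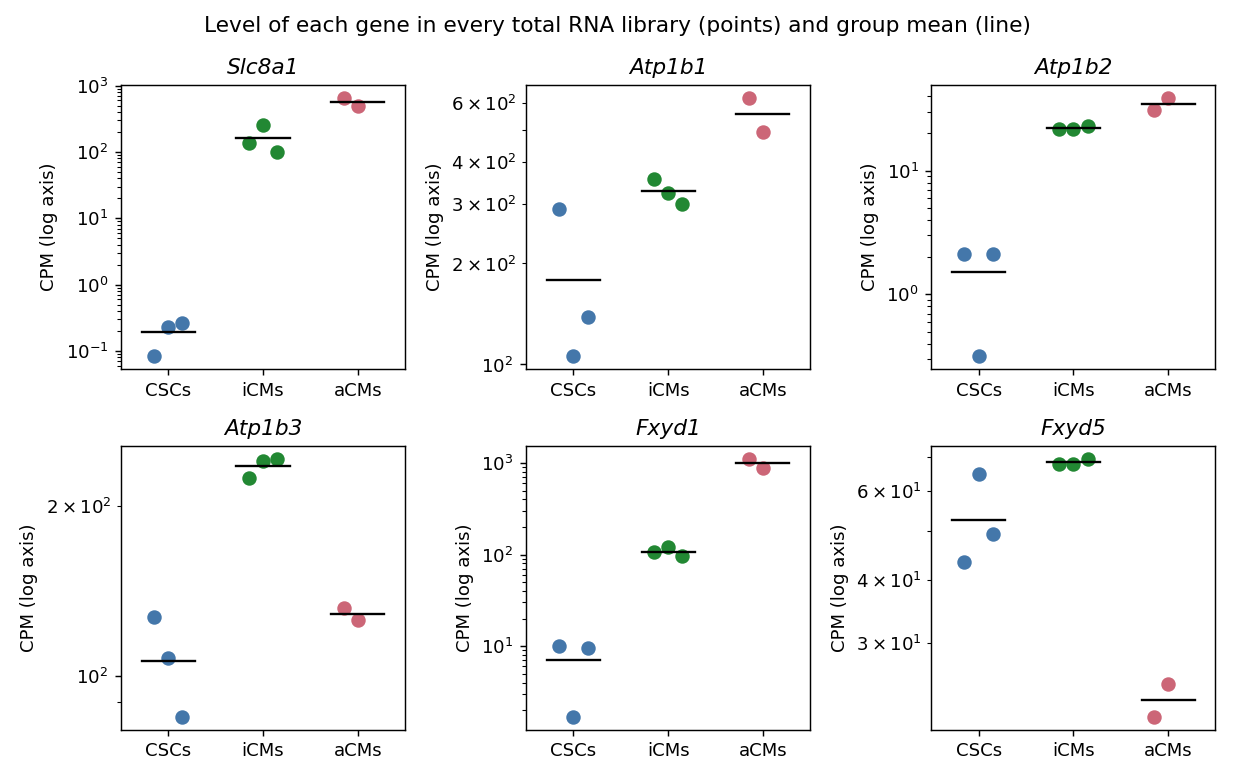
CPM on a log axis for each of the 6 genes in every library, with points for libraries and a line for the mean of CSCs, iCMs or aCMs. Slc8a1 lies at 0.0836 to 0.263 CPM in CSCs, 101.4 to 254.9 in iCMs and 496 and 657 in aCMs, and Fxyd1 is ordered in the same way, each step called.

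Slc8a1 had the widest range of the 6. It was at 0.0836, 0.227 and 0.263 CPM in the 3 CSC libraries, which is 5, 15 and 9 counts, at 136.6, 254.9 and 101.4 CPM in iCMs and at 657 and 496 CPM in aCMs. Every iCM library lay far above every CSC library and below both aCM libraries, and iCM replicate 2 stood above the other iCM samples. The mean was 164 ± 80.4 CPM in iCMs (SD, n = 3) and 577 ± 114 in aCMs (SD, n = 2), against 0.191 ± 0.095 in CSCs (SD, n = 3). In iCMs the exchanger gene was thus 876-fold above CSCs, a log2 fold change of 9.78 (SE 0.53, edgeR adjusted p = 4.0e-07), and in aCMs 3075-fold above them, at 11.59 (SE 0.57, edgeR adjusted p = 1.2e-07). Between the muscle groups iCMs were 3.51-fold lower than aCMs, at -1.81 (SE 0.38, edgeR adjusted p = 0.0032), with no overlap of the samples. This last call was lost when libraries were scaled by their totals alone, at -1.10, a scaling that moved the median of all genes by 0.71. Relative to that median Slc8a1 was still at -1.99 with totals.

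The RefSeq start of Slc8a1 lies on the minus strand of chromosome 17, and the window from 250 bases before to 50 bases after it is chr17:81738338-81738637 (GRCm38.p6, the mm10 build). It is shown because Slc8a1 carried the largest difference among the 6 genes. Capitals mark an E-box (CANNTG) at -169, counted from the start base as 0, and a GATA motif (GATAAG) at -67.
Slc8a1: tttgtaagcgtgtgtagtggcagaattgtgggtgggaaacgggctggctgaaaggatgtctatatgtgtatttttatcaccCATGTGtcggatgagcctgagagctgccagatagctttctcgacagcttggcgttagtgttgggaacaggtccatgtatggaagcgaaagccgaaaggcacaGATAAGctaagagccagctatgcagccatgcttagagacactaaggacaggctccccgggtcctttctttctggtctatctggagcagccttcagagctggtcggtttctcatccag
A GATAAG on either strand occurred in 7.44% of the 32851 RefSeq windows of this length and an E-box in 72.3%. No match to the MEF2 motif (in 3.19% of windows) or the CArG box (1.63%), searched on both strands, fell in this window. A match is a run of letters and not a measured site.

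Against the 8 summed cardiomyocyte markers of the same library, a ratio chosen after the data were seen, Slc8a1 was at log2 -6.73, -6.43 and -7.37 in iCMs and at -8.22 and -8.35 in aCMs. The ratio was therefore 2.71-fold higher in iCMs and the groups did not overlap, while an exact two-sided permutation test gave p = 0.1, the smallest that 3 against 2 samples allow. Such ratios were compared 30 times, and the smallest p adjusted over all of them was 0.12. With this sum Fxyd1 behaved otherwise. Its ratio to the same markers was -7.10, -7.51 and -7.46 in iCMs and -7.45 and -7.52 in aCMs, overlapping and 1.10-fold apart (exact permutation p = 0.7). The sum weighs markers by their counts, and Myh6 was its largest part in aCMs, at a mean of 76750 CPM against 3405 in iCMs. Single markers were 5.07-fold (Actc1) to 22.5-fold (Myh6) lower in iCMs than in aCMs. The 9.31-fold of Fxyd1 lies within that range and the 3.51-fold of Slc8a1 below it, so these ratios depend on the markers summed. The ratios of Atp1b1, Atp1b2, Atp1b3 and Fxyd5 to the markers were 6.01-, 6.51-, 18.6- and 30.2-fold higher in iCMs, each without overlap. The share in these values of other cells whose markers the iCM cultures held, such as the smooth muscle and leukocyte markers, was not tested.

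**Figure D2:**
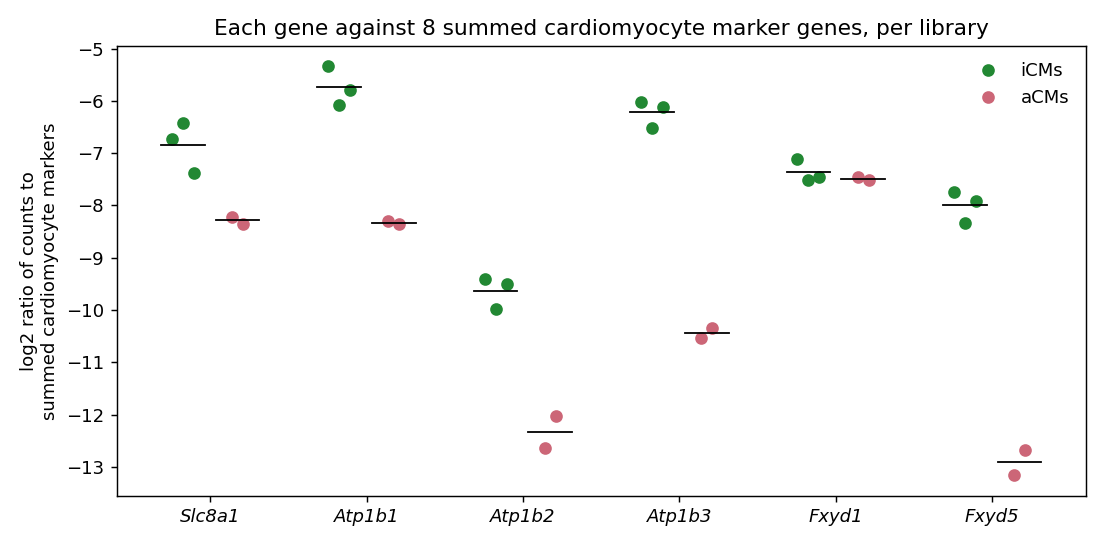
Log2 ratio of the counts of each gene to the summed counts of 8 cardiomyocyte markers, with a point for each iCM and aCM library and a line for each mean. The groups overlap for Fxyd1 alone among the 6 genes, and Fxyd5 shows the widest gap.

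Among the beta subunits, Atp1b1 encodes the main beta subunit of the heart pump. It was at 291, 106.0 and 138.5 CPM in CSCs, 358, 325 and 301 in iCMs and 623 and 493 in aCMs. The groups did not overlap, yet CSC replicate 1 came close to the iCM samples. In aCMs Atp1b1 was 3.13-fold above CSCs, at a log2 fold change of 1.64 (SE 0.36, edgeR adjusted p = 0.0030), and with library totals it was at 0.96 and no longer called. For iCMs vs. CSCs the fold was 1.84 and not called (log2 0.88, 95% interval 0.14 to 1.61, edgeR adjusted p = 0.050). Without CSC replicate 1 the log2 fold change was 1.43 (edgeR adjusted p = 5.9e-04) and called. For iCMs vs. aCMs the log2 difference was -0.77 (95% interval -1.58 to 0.04) and was not called either. Atp1b1 lies on chr1:164437099-164458355 (GRCm38.p6), and the annotated span of Nme7, chr1:164307524-164437300, overlaps its end. Since the counting is not stated to use strand, reads of both genes cannot be told apart there. Nme7 reached at most 21.1 CPM in any library.

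Atp1b2 encodes a beta subunit best known from astrocytes, where it was described as an adhesion molecule on glia. It was at 2.14, 0.318 and 2.13 CPM in CSCs, at 21.5, 21.8 and 23.0 in iCMs and at 30.9 and 38.7 in aCMs. CSC replicate 2, with 21 counts, was the lowest sample, and the iCM libraries differed little among themselves. In iCMs Atp1b2 was 14.6-fold higher than in CSCs, at 3.87 (SE 0.57, edgeR adjusted p = 4.1e-04), and without CSC replicate 2 it was at 3.37. In aCMs it was 23.0-fold higher than in CSCs, at 4.52 (SE 0.61, edgeR adjusted p = 1.3e-04). The difference of -0.66 between iCMs and aCMs had a 95% interval of -1.89 to 0.58 and was not called. The 4 glial markers summed to 1.83 to 4.36 CPM in CSCs, 5.45 to 9.10 in iCMs and 6.18 to 9.97 in aCMs, and their part in the level of Atp1b2 was not tested.

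Atp1b3 encodes a broadly expressed beta subunit. It was at 127, 107.6 and 84.8 CPM in CSCs, at 224, 240.0 and 242 in iCMs and at 132 and 125.5 in aCMs. The iCM samples lay above all others, and the CSC and aCM samples overlapped. The log2 difference was 1.14 over CSCs (SE 0.18, edgeR adjusted p = 5.8e-04) and 0.87 over aCMs (SE 0.20, edgeR adjusted p = 0.0056), folds of 2.21 and 1.83 that did not reach the threshold of 2.5. For aCMs vs. CSCs it was 0.27, with a 95% interval of -0.17 to 0.71.

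Ratios within a library need no scaling between libraries, and gene length cancels when a ratio is compared between groups. The log2 ratio of Atp1b1 to Atp1b3 was 1.20, -0.02 and 0.71 in CSCs, 0.68, 0.44 and 0.31 in iCMs and 2.24 and 1.97 in aCMs. aCMs stood above all other samples, 3.10-fold over iCMs and 2.79-fold over CSCs, while the CSC and iCM samples overlapped (exact permutation p = 0.1 for both comparisons with aCMs, the smallest possible, and 0.7 for iCMs vs. CSCs). The log2 ratio of Atp1b2 to Atp1b3 was -5.89, -8.40 and -5.31 in CSCs, -3.38, -3.46 and -3.40 in iCMs and -2.09 and -1.70 in aCMs. It was 8.72-fold higher in iCMs than in CSCs and 2.86-fold lower than in aCMs, with no overlap. Without CSC replicate 2 its log2 difference was 2.19 in iCMs vs. CSCs, in place of 3.12, and 3.71 in aCMs vs. CSCs, in place of 4.64. Without CSC replicate 3 these were 3.74 and 5.25. Leaving out CSC replicate 2 took the log2 difference of the Atp1b1 to Atp1b3 ratio from 1.48 to 1.16 in aCMs vs. CSCs.

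**Figure D3:**
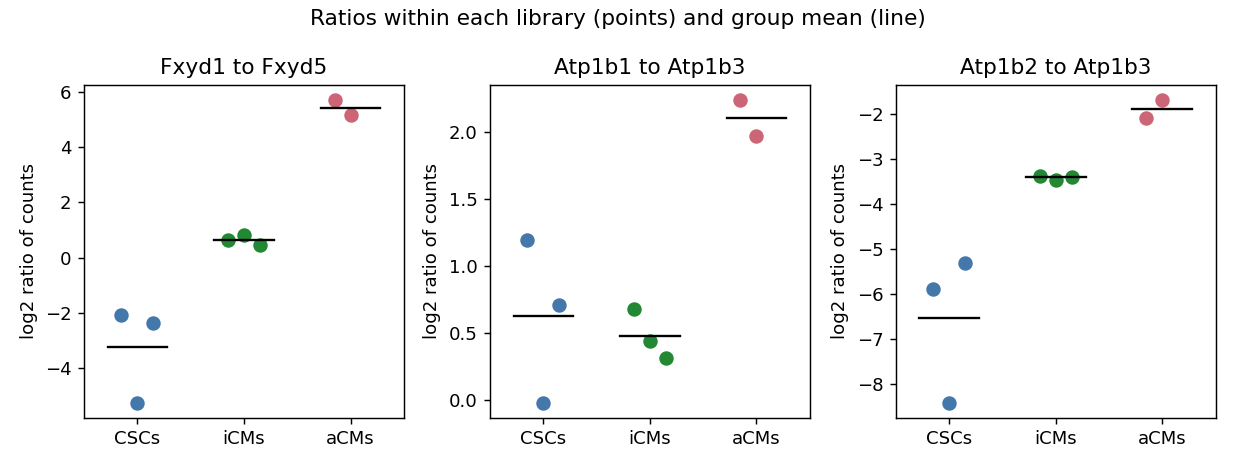
Log2 ratios of counts within each library (points) with group means (lines) for Fxyd1 to Fxyd5, Atp1b1 to Atp1b3 and Atp1b2 to Atp1b3. The ratio of Fxyd1 to Fxyd5 lies at -5.25 to -2.09 in CSCs, 0.46 to 0.83 in iCMs and 5.15 and 5.70 in aCMs.

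Of the FXYD genes, Fxyd1 had the wider range. It was at 10.2, 1.70 and 9.56 CPM in CSCs, at 105.6, 120.8 and 95.6 in iCMs and at 1115 and 884 in aCMs. Each group stood clear of the next, and CSC replicate 2, with 112 counts, was far below the other CSC samples. In iCMs Fxyd1 was 15.1-fold above CSCs, at a log2 fold change of 3.92 (SE 0.55, edgeR adjusted p = 3.1e-04), or 3.44 without CSC replicate 2. In aCMs it was 140.5-fold above CSCs, at 7.13 (SE 0.65, edgeR adjusted p = 8.3e-06), and iCMs were 9.31-fold below aCMs, at -3.22 (SE 0.56, edgeR adjusted p = 0.0010).

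Fxyd5 encodes dysadherin, a pump partner linked to reduced cell adhesion in epithelia. It was at 43.4, 64.6 and 49.3 CPM in CSCs, at 68.0, 67.9 and 69.5 in iCMs and at 21.4 and 24.9 in aCMs. Both aCM samples were below all others, while CSC replicate 2 came close to the iCM samples. iCMs were 2.95-fold above aCMs, at 1.56 (SE 0.22, edgeR adjusted p = 3.1e-04). aCMs were at -1.18 against CSCs (SE 0.22, edgeR adjusted p = 0.0011), a fold short of the threshold, and were called lower without aCM replicate 2, at -1.34. For iCMs vs. CSCs the log2 difference was 0.38, with a 95% interval of -0.03 to 0.80. The 5 fibroblast markers summed to 260.1 and 396 CPM in aCMs, 1778 to 2061 in iCMs and 3264 to 4745 in CSCs, but they did not share 1 direction. In aCMs vs. CSCs Col1a1, at a mean of 49.2 against 4064 CPM, and Pdgfra were called lower, Dcn and Thy1 were called higher, and Col1a2 was not called. Their part in the level of Fxyd5 was not tested.

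The log2 ratio of Fxyd1 to Fxyd5 was -2.09, -5.25 and -2.37 in CSCs, 0.64, 0.83 and 0.46 in iCMs and 5.70 and 5.15 in aCMs. No groups overlapped, and each of the 3 comparisons gave an exact permutation p = 0.1, the smallest possible. The ratio was 14.7-fold higher in iCMs than in CSCs and 405-fold higher in aCMs than in CSCs, log2 differences of 3.88 and 8.66, which without CSC replicate 2 were 2.87 and 7.66.

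Fxyd1 and Fxyd5 lie on the minus strand of chromosome 7, with 9347 bases between them that hold Fxyd7. A start of each is shown because their ratio moved furthest among the ratios of members printed here. The long noncoding gene Gm38984 overlaps both and was not analysed here. The windows are chr7:31054804-31055103 for Fxyd1 and chr7:31042282-31042581 for Fxyd5 (RefSeq, GRCm38.p6). The Fxyd1 window lies inside the annotated span of the gene, chr7:31051678-31055873, so its start is an internal one. Capitals mark a TATA box (TATAAA, here as its reverse complement) that begins 1 base after this internal start base of Fxyd1, and an E-box (CANNTG) 9 bases after the start base of Fxyd5.
Fxyd1: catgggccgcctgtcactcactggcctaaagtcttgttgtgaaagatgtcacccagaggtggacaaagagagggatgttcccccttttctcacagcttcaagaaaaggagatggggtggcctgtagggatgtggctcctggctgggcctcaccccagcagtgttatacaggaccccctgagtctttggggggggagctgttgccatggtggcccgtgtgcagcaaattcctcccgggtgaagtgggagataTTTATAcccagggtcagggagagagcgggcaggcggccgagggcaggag
Fxyd5: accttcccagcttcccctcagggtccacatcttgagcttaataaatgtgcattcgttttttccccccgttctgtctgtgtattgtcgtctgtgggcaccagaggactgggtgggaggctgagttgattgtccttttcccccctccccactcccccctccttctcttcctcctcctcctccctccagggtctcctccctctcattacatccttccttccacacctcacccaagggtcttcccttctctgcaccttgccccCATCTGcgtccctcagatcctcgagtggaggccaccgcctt
TATAAA on either strand was in 13.6% of all windows. The GC content was 58.7% for Fxyd1, 57.3% for Fxyd5 and 50.7% for Slc8a1, against 71.0% for Atp1b1, 76.0% and 74.7% for the windows of Atp1b3 and a median of 52.7% over all windows. Of the GC box (GGGCGG, in 35.7% of windows), Atp1b1 held 2 matches and the first window of Atp1b3 held 6, and Slc8a1, Fxyd1 and Fxyd5 held 0. Of the 6 genes 5 had a window, and Atp1b2 is named only.

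**Figure D4:**
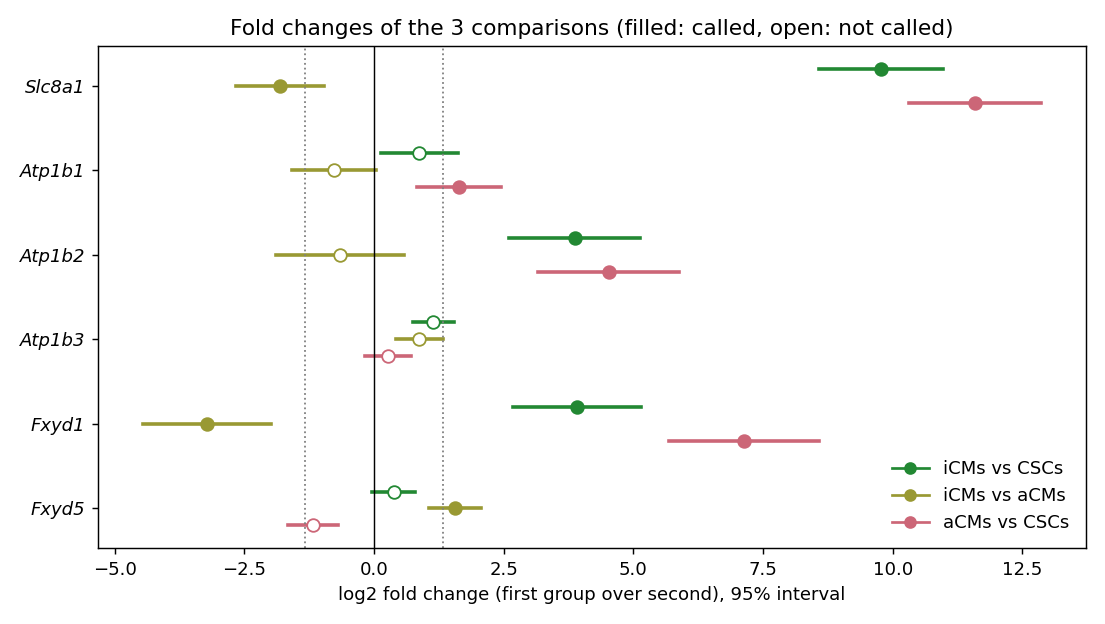
Log2 fold changes with 95% intervals for the 6 genes, with 1 color for each pair of groups and the first-named group over the second. Filled points are called, open points are not, and dotted lines mark 2.5-fold. Slc8a1 lies at 9.78 and 11.59 over CSCs, beyond every other gene shown.

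The genes with the most similar levels were named for each of the 6 as the 3 with the highest Pearson correlation of log2 CPM over the 8 libraries, among 10032 genes with a mean log2 CPM of at least 3. The libraries share their groups, so these values are a description. For Slc8a1 they were the desmosomal gene Pkp2, the Z-disc gene Synpo2l and the cardiac actin gene Actc1, at 0.998, 0.998 and 0.997. For Fxyd1 they were the mitochondrial carrier gene Slc25a23, the glutathione transferase gene Gsta4 and the cathepsin gene Ctsf, each at 0.995 or more. For Atp1b1 they were Higd2a, 1110032A03Rik and Lgr6, at 0.987, 0.986 and 0.985. For Atp1b2 they were Rtl8c, Cyp2d22 and Vash1, at 0.994, 0.992 and 0.990. Atp1b3 came closest to Zfand5, Arl5b and Csrnp1, at 0.989, 0.982 and 0.982. Fxyd5 came closest to Rpl15-ps3, the membrane protein gene Emp1 and the growth regulator gene Myc, at 0.994, 0.994 and 0.992. Rpl15-ps3 is a pseudogene that may share reads with Rpl15.

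Among the 6 genes themselves, the same correlation was 0.92 between Slc8a1 and Fxyd1, 0.93 between Slc8a1 and Atp1b2 and 0.95 between Fxyd1 and Atp1b2. It was -0.59 between Fxyd1 and Fxyd5 and 0.43 between Atp1b1 and Atp1b3.

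Other FXYD genes and genes of pump-binding proteins were also measured. Fxyd6 was at most 0.234 CPM in CSCs, 31.3 to 40.4 in iCMs and 34.8 and 49.4 in aCMs, and Fxyd4, a regulator known from the kidney, was at 2.34 to 5.72 in CSCs and had 0 counts in aCMs. Fxyd2, the gamma subunit gene of the kidney pump, was called higher in iCMs at 1.06 to 2.02 CPM against 0.0303 to 0.703 in CSCs. Nkain1, which like Nkain4 encodes a protein that binds beta subunits, was higher in aCMs, at 33.7 and 41.8 CPM, than in iCMs at 7.44 to 11.8. Nkain4 was at 24.1 to 28.4 CPM in iCMs and at most 1.25 in the other groups. Fxyd7, which lies between Fxyd1 and Fxyd5, stayed at or below 1.08 CPM and was called in 0 comparisons.

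Of 18 other sodium-coupled exchangers and cotransporters 16 were tested. In iCMs vs. CSCs 5 were higher and 1 lower (22.0% and 7.16% of all genes), in aCMs vs. CSCs 5 and 4 (24.2% and 20.4%) and in iCMs vs. aCMs 4 and 4 (19.6% and 15.3%), and with so few genes these shares are not read as a result about the list. The median log2 fold changes were 0.32, -0.47 and 0.86. The sodium-bicarbonate cotransporter gene Slc4a4 followed the order of Slc8a1, with 0.167 to 0.242 CPM in CSCs, 9.04 to 14.2 in iCMs and 32.3 and 41.1 in aCMs. The sodium-proton exchanger genes Slc9a5 and Slc9a2 were opposed in aCMs vs. CSCs, at -4.03 (SE 0.37, edgeR adjusted p = 9.2e-06) and 2.20 (SE 0.24, edgeR adjusted p = 3.2e-05). Of the potassium-dependent exchanger genes, Slc24a2 was at 0.379 to 1.49 CPM in CSCs, 2.56 to 3.35 in iCMs and 9.33 and 9.97 in aCMs. Slc24a3 was called higher in aCMs at 2.10 and 3.26 CPM. Slc24a4 was called higher in iCMs than in both other groups at 0.916 to 1.66 CPM, and Slc24a5 likewise at 14.4 to 16.2 CPM. Slc12a2, the sodium-potassium-chloride cotransporter gene, and Slc4a8 were lower in aCMs than in CSCs, at -1.69 (SE 0.27) and -1.63 (SE 0.36). The paralogs of the exchanger, Slc8a2 and Slc8a3, were at most 5.04 and 1.10 CPM and were not called in any comparison. Slc8b1, which encodes the mitochondrial sodium-calcium exchanger, was lower in aCMs, at 7.62 and 10.7 CPM, than in CSCs at 20.2 to 75.7 and iCMs at 48.9 to 55.8.

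Of 19 anchors and regulators of the pump and exchanger, all tested, 8 were higher and 2 lower in aCMs vs. CSCs (24.2% and 20.4% of all genes), 2 and 1 in iCMs vs. CSCs (22.0% and 7.16%), and 3 and 4 in iCMs vs. aCMs (19.6% and 15.3%). The median log2 fold changes were 0.33, 0.02 and -0.18, and the counts are not read as a result about the list either. Ank2, whose product ankyrin-B anchors the pump and NCX1, was at 10.7 to 13.8 CPM in CSCs, 27.1 to 30.7 in iCMs and 171 and 203 in aCMs. The caveolin gene Cav3 had 0 counts in every CSC library and was at 51.1 to 72.3 CPM in iCMs and 138 and 148 in aCMs. Ank3, the ankyrin-G gene, was likewise at 10.4 to 12.3, 21.6 to 26.4 and 70.2 and 95.7 CPM. The protein kinase A genes Prkaca and Prkar2a were higher in aCMs than in iCMs, where the log2 difference of iCMs vs. aCMs was -1.37 (SE 0.19) and -1.96 (SE 0.51). The protein kinase C gene Prkcd fell from 69.1 to 75.3 CPM in CSCs to 8.02 and 14.5 in aCMs. Ppp1r1a, the gene of an inhibitor of protein phosphatase 1, was highest in iCMs at 12.4 to 14.2 CPM, against at most 0.0167 in CSCs and 1.63 in aCMs. Src, a kinase described as a signalling partner of the pump, fell from 124 to 149 CPM in CSCs to 37.1 to 46.2 in iCMs and 3.68 and 5.27 in aCMs. Of the plasma membrane calcium pump genes, 3 of 4 were tested, and Atp2b2 was higher in aCMs than in both other groups, at 3.94 and 1.15 CPM against at most 0.323 in iCMs and 0.234 in CSCs.

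Genes next to the 6 on their chromosomes were followed too. Of 23 annotated neighbours 8 were tested, with 0 higher and 1 lower in iCMs vs. CSCs (22.0% and 7.16% of all genes), 0 and 2 in aCMs vs. CSCs (24.2% and 20.4%), and 2 and 0 in iCMs vs. aCMs (19.6% and 15.3%). The called ones were Nme7 beside Atp1b1 and Trp53 beside Atp1b2, which were at -3.77 (SE 0.40) and -2.87 (SE 0.22) in aCMs vs. CSCs, where Atp1b1 and Atp1b2 were higher.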

How the data were processed

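Total RNA of 8 libraries was analyzed. The authors depleted ribosomal RNA, sequenced paired-end reads, aligned them to mm10 with Strand NGS and Ensembl transcripts, and deposited estimated counts per gene, which are not whole in 51.4% of values and were rounded here. The small RNA table was not used.

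Genes with low counts were removed with the filter of edgeR 4.0.16 on R 4.3.3 and TMM factors were applied. Its quasi-likelihood test was fitted to all 8 libraries (CSCs, iCMs, aCMs), and p-values were adjusted over 20254 genes by Benjamini and Hochberg. SEs were taken from the F statistic, and 95% intervals use the t distribution of the fit. Depth was 11.1 to 63.2 M counts a library. Log2 CPM have a prior count of 2. Within-library ratios were compared by exact two-sided permutation tests. All 39043 entries were matched to symbols by Ensembl ID, 36308 with success. The members, lists and tests were chosen with earlier results of these data known. Exon lengths were not used here, so shares of the beta subunits per length were not computed, and log2 count ratios, chosen after the data were seen, stand in their place.

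Alternatives were DESeq2 1.42.0, its size factors, library totals, no filter, a filter at 10 CPM in 2 libraries, only the groups compared, a replicate block, leave-one-out fits and other call rules. The named genes are the 6 members, per list and comparison up to 4 called genes of smallest p with those called against the rest, the 3 genes most similar to each member, and called neighbours. Kit, Ly6a, Eif2s3y, Ddx3y, Uty, Kdm5d, Xist, Fxyd7, Slc8a2 and Slc8a3 were also named after their values were seen. Some members of the list of other pump genes, and the counts over that list, are not reported here. The edgeR fit and its call rule were tried on simulated counts, for iCMs vs. CSCs alone. The ratios, permutation tests and correlations were not tried in this way.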

Additional observations from a re-analysis of the deposited data

How the results depend on the processing

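Of the members' fold changes, 2 changed direction, neither of them called, both with library totals only: Atp1b2 in iCMs vs. aCMs to 0.051 and Atp1b3 in aCMs vs. CSCs to -0.39. That scaling moved the median of all genes by 0.71 in iCMs vs. aCMs and by -0.66 in aCMs vs. CSCs, and the share of higher genes among all calls from 56.2% to 79.3% and from 54.2% to 36.3%. With it, members called in iCMs vs. aCMs were 2 higher and 1 lower (Atp1b3, at 1.58, was added and Slc8a1, at -1.10, was lost), and 1 was called lower in aCMs vs. CSCs. With adjusted p alone Atp1b3 was also higher in iCMs vs. aCMs, and Fxyd5 was also lower in aCMs vs. CSCs. With no filter 1 member was lower in aCMs vs. CSCs, where 4863 of 31498 genes were called lower. Leaving out 1 library gave 0 to 1 lower in aCMs vs. CSCs, the 1 being Fxyd5 without aCM replicate 2, and 3 to 4 higher in iCMs vs. CSCs, the added one being Atp1b1 without CSC replicate 1. With aCM replicate 1 or 2 alone, the lone sample is assumed to vary like the other groups. A stricter filter took Atp1b3 in iCMs vs. CSCs to 1.33 and called it.

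Same-numbered CSC and iCM samples correlated at 0.03, 0.16 and 0.07 in their deviations from the group means. Differently numbered ones correlated at -0.115 to 0.0665, and each iCM sample was highest with its same-numbered CSC sample. With values this low the main fit did not pair them, and whether the numbers pair the samples is not settled. With the replicate block 3 members were higher and 0 lower in iCMs vs. CSCs, 1 and 2 in iCMs vs. aCMs and 4 and 0 in aCMs vs. CSCs, and all calls of members were kept. Shares of the beta subunits by exon length or longest transcript were not run. Slc8a1 in CSCs rests on 5 to 15 counts a library, which limits its fold over CSCs.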

Other observations

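The aCM libraries differed from each other in skeletal muscle markers, which summed to 286 CPM in replicate 1 and 13.6 in replicate 2, against at most 1.51 in iCMs and 0.117 in CSCs. Xist was at 562 to 634.6 CPM in CSCs, 186.9 to 210.4 in iCMs, and 125 and 68.8 in aCMs. Epithelial markers summed to 35.8 to 86.6 CPM in iCMs and at most 3.19 in CSCs and 1.34 in aCMs, where Cdh1 was at 0.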
